A study of Mus musculus with 9 samples.

Results

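Cd5, Cd6, Cd69 and Cd44 encode surface proteins of T cells that are commonly stained to judge how strongly a T cell receptor (TCR) has signalled. The 4 genes were found by their symbols in a table of 24060 mouse genes, and all 4 were among the 11330 genes tested. The values cover 9 libraries of CD8 T cells from the transnuclear mouse lines R7-I, R7-II and R7-III, 3 libraries per clone. Transnuclear mice are made by transfer of the nucleus of a T cell into an egg, so the CD8 T cells of each line carry the rearranged TCR of 1 founder cell, and the receptor cannot be told apart from other differences between the lines. All lines were Rag2-proficient and on a BALB/c background, and all receptors recognise a single peptide of ROP7, a Toxoplasma protein, on H-2Ld. Every group had the same treatment: splenocytes stayed overnight in medium that held ROP7 peptide at 10 µM and IL-2 at 10 ng/ml, after which live CD3+ CD8+ cells that bound the H-2Ld-Rop7 tetramer were sorted to a purity of 90 to 95%. No source used here gives the ages of the mice. The libraries are called biological replicates in the labels, without mention of separate mice or cultures. The p-values therefore set differences between clones against the spread between these libraries, which need not be that between mice. The design ranks affinity for the peptide as R7-I > R7-III > R7-II and self-reactivity as R7-III > R7-I > R7-II. The self-reactivity ranking was itself set with CD5 and Nur77 levels, so Cd5 transcript levels are not independent of it.

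CD5 and CD6 are related scavenger receptor proteins of T cells whose tails are phosphorylated after TCR engagement; both tune signalling, and CD5 rises in the thymus with the strength of self-recognition and is kept on mature cells. CD69 is a C-type lectin that appears within hours of activation and holds cells in tissue by pulling the sphingosine phosphate receptor S1PR1 from the surface. CD44 binds hyaluronan, is raised by activation and stays high on memory cells. Cd69 and Cd44 therefore report activation, whereas Cd5 and Cd6 are present before it. Unstimulated cells were not analysed here, so no value below is a change upon activation.

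Cd5 and Cd6 are neighbours in the mouse genome. On build GRCm38 (mm10) Cd5 lies at chr19:10718107-10739026 and Cd6 at chr19:10789339-10830062, both on the minus strand, with 50.3 kb between them. Cd69 lies at chr6:129267324-129275375 and Cd44 at chr2:102811141-102901669, also on the minus strand. The basic GENCODE annotation gives Cd44 8 transcripts with 9 to 19 exons, from which the long variant forms of the protein arise, while Cd5, Cd6 and Cd69 have 2 transcripts each. Each gene has 1 value per library here, so the forms cannot be separated.

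Upstream sequence of the RefSeq table (GRCm38.p6) was matched for 2 of the 4 genes, Cd5 and Cd44. It had no entry for Cd6 or Cd69, so these 2 genes were not chosen by their levels. Their sequences are shown so that the stretch before each gene can be read beside its values. The bases just before the annotated extent of Cd5 and Cd44, 198 for Cd5 (chr19:10739027-10739224) and 246 for Cd44 (chr2:102901670-102901915), read from 5′ to 3′ on the minus strand:
Cd5: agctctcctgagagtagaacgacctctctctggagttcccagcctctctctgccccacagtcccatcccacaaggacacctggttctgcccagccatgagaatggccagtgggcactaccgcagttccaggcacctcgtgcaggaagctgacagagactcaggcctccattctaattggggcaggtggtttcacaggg
Cd44: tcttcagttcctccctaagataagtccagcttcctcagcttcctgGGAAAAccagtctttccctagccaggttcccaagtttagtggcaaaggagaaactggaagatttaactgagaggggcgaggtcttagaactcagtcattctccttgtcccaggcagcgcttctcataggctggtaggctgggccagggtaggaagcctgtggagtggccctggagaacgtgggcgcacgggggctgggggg
Capitals mark GGAAAA, the core letters bound by NFAT, a factor that enters the nucleus after TCR-driven calcium release. Over the 250 bases before the start site of the table, 5 motifs were searched on both strands: ETS (GGAAGT), AP-1 (TGANTCA), NFAT (GGAAAA), EGR (GCGTGGGCG) and KLF (CACCC). Cd44 held the NFAT letters at -205 and none of the others. Cd5 held the ETS letters at -51 and none of the others; this match lies inside the extent of the gene, since the longest annotated transcript begins upstream of the start site used by the table.
Cd5, ETS letters in capitals (chr19:10739008-10739037): gtttcacagggaGGAAGTtgacagttcaac
Of 32851 mouse promoters of the same length, 19.7% held the ETS letters, 6.75% AP-1, 20.4% NFAT, 0.536% EGR and 52.0% KLF. Both matches are thus short runs of letters that many promoters hold, and no binding was measured.

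Levels are given as TPM (transcript abundance), a value corrected for gene length and scaled to the same total in each library. Cd5, Cd6 and Cd44 transcripts were lowest in R7-II in every library, whereas the Cd69 values of the clones overlapped. Cd5 in R7-II was at 65.5% of its R7-I level and 52.3% of its R7-III level, Cd6 at 80.7% and 73.1%, and Cd44 at 44.4% and 39.3%. Between R7-III and R7-I the same genes differed less, with R7-III the higher.

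Cd5 measured 541, 564 and 531 TPM in the R7-I libraries, 354, 423 and 304 TPM in those of R7-II and 673, 689 and 691 TPM in those of R7-III. The clones did not overlap, and R7-II spread the most; R7-II lay below R7-I without overlap in 20.6% of all genes tested and below R7-III in 24.3%. The means were 545 ± 16.8, 360 ± 59.9 and 684 ± 9.97 TPM (SD, n = 3) in R7-I, R7-II and R7-III. Cd5 thus ranked between 172 and 179 among all genes by level in the R7-III libraries, 227 to 240 in R7-I and 306 to 461 in R7-II.

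Cd6, the neighbour and relative of Cd5, measured 530, 540 and 538 TPM in the R7-I libraries, 433, 476 and 392 TPM in those of R7-II and 589, 585 and 601 TPM in those of R7-III. The order of the clones was that of Cd5, again without overlap, over a narrower range. Means were 536 ± 5.52, 434 ± 42.1 and 592 ± 8.07 TPM (SD, n = 3) in R7-I, R7-II and R7-III.

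Cd44 measured 169, 177 and 176 TPM in the R7-I libraries, 61.4, 93.8 and 78.0 TPM in those of R7-II and 194, 198 and 198 TPM in those of R7-III. All R7-II libraries lay far below the 6 others. Means were 174 ± 4.23, 77.7 ± 16.2 and 196 ± 2.22 TPM (SD, n = 3) in R7-I, R7-II and R7-III.

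Cd69 measured 286, 260 and 281 TPM in the R7-I libraries, 276, 291 and 293 TPM in those of R7-II and 274, 266 and 283 TPM in those of R7-III. The libraries of all 3 clones overlapped. Means were 276 ± 14.1, 287 ± 8.88 and 274 ± 8.94 TPM (SD, n = 3) in R7-I, R7-II and R7-III; from the highest mean to the lowest the order was R7-II, R7-I, R7-III, and the libraries of neighbours in it overlapped.

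**Figure D1:**
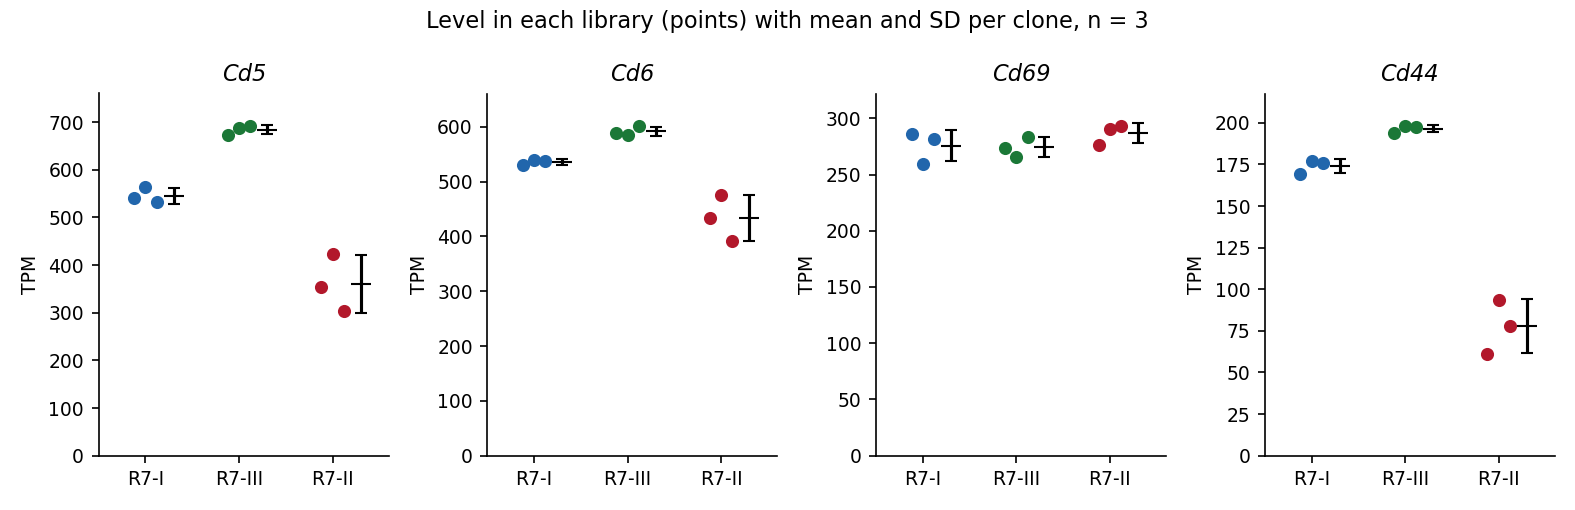
TPM of Cd5, Cd6, Cd69 and Cd44 in each library (points; vertical axes start at 0) for clones R7-I, R7-III and R7-II, with the mean and SD of the 3 libraries beside them. For Cd5, Cd6 and Cd44 every R7-II point lies below every other point, whereas the Cd69 points of the clones overlap between 260 and 293 TPM.

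The clones were compared with limma on log2(TPM + 1), all 9 libraries in 1 fit, with adjustment over all 11330 genes and a threshold of 0.01. Both comparisons of R7-II use the same R7-II libraries. Cd5, Cd6 and Cd44, 3 of the 4 genes, were lower in R7-II than R7-I, where 15.5% of all genes tested were lower, and lower than in R7-III, where 18.0% were; 12.8% of genes were lower in both. R7-II differed from the other clones across most of the transcriptome, with 56.1% and 53.6% of genes passing in either direction and 40.6% and 35.6% higher, so a call alone says little about these genes.

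Cd5 differed by a log2 fold change of -0.61 between R7-II and R7-I (SE 0.0893, 95% interval -0.81 to -0.41, adjusted p = 1.37e-04) and by -0.94 between R7-II and R7-III (adjusted p = 7.14e-06). For Cd6 the differences were -0.31 (SE 0.0547, adjusted p = 5.11e-04) and -0.45 (adjusted p = 3.79e-05). Cd44 had the largest differences of the 4 genes, -1.17 (SE 0.112, adjusted p = 6.64e-06) and -1.35 (adjusted p = 2.56e-06). All of these calls held under each of the 19 alternative settings, with a highest adjusted p of 0.00559, for Cd6 between R7-II and R7-I.

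Cd69 did not pass in any comparison. Its log2 fold change was 0.06 between R7-II and R7-I (95% interval -0.04 to 0.15, adjusted p = 0.248), 0.06 between R7-II and R7-III (adjusted p = 0.198) and -0.01 between R7-III and R7-I (95% interval -0.10 to 0.08, adjusted p = 0.934). The median gene was higher by 0.17 in R7-II than R7-I and by 0.12 than in R7-III. Relative to that median, Cd69 stood at -0.11 and -0.06, Cd5 at -0.78 and -1.06, Cd6 at -0.48 and -0.57, and Cd44 at -1.34 and -1.47. In the comparisons of R7-II the sign of the Cd69 difference therefore depends on the scaling, and that of the other genes does not.

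**Figure D2:**
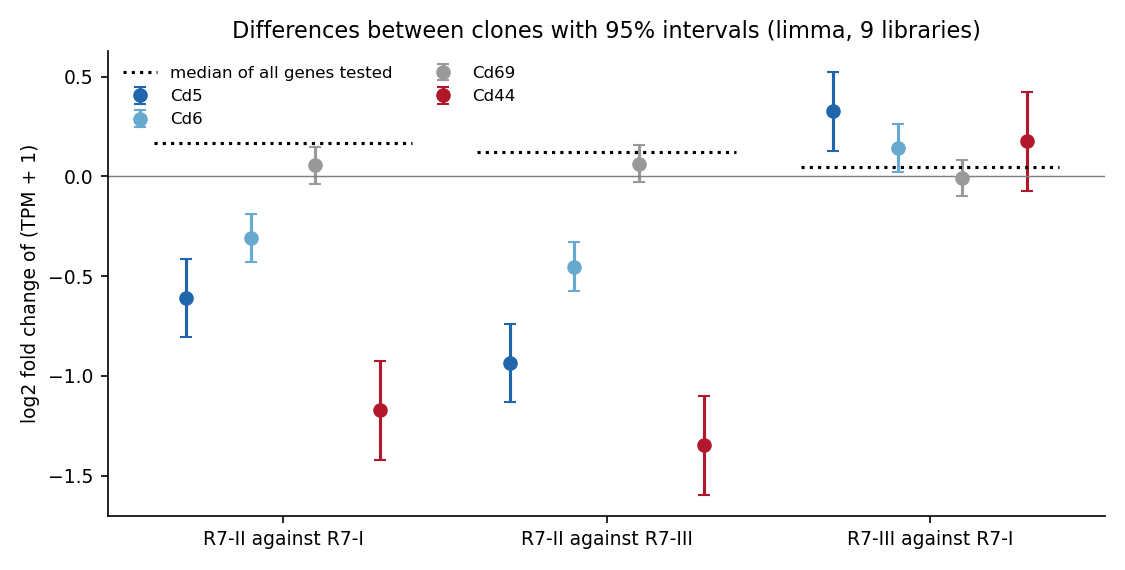
Log2 fold change of (TPM + 1) with 95% intervals for Cd5, Cd6, Cd69 and Cd44 in each comparison of clones, from limma over 9 libraries; dotted lines are the median of all genes tested. Cd5, Cd6 and Cd44 lie below 0 and below the median line in both comparisons of R7-II, and Cd69 lies near 0 in all 3 comparisons.

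R7-III and R7-I are the clones that the affinity and self-reactivity rankings place in opposite order. Every R7-III library was above every R7-I library for Cd5, Cd6 and Cd44, a separation in this direction that 29.5% of genes tested showed. The differences did not pass the threshold: the log2 fold change was 0.33 for Cd5 (95% interval 0.13 to 0.52, adjusted p = 0.0287), 0.14 for Cd6 (0.02 to 0.26, adjusted p = 0.0967) and 0.18 for Cd44 (-0.07 to 0.42, adjusted p = 0.317). The shared estimate of spread includes the wider R7-II libraries. Where the fit held R7-I and R7-III alone, all 3 genes passed, with adjusted p of 2.80e-04 for Cd5, 0.00297 for Cd6 and 0.00313 for Cd44; 8.17% of all genes were higher in R7-III in that fit. In the fit of all clones this comparison called 8.41% of genes, 6.96% higher in R7-III and 1.45% lower; at a threshold of 0.05, which Cd5 met, 14.8% were higher.

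An exact permutation test over all 1680 ways to assign the 9 libraries to 3 clones gave p = 0.00357 for Cd5, Cd6 and Cd44, the smallest value that it allows, and p = 0.375 for Cd69. For a pair of clones an exact two-sided permutation test cannot go below 0.1, and Cd5, Cd6 and Cd44 reached 0.1 in every pair. The order R7-III above R7-I above R7-II, without overlap of libraries, was shared by 657 genes, or 5.80% of those tested. Genes that separate the clones in other orders are not in this share. How many of all genes reach the smallest p of the test was not counted.

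The R7-II libraries differed from each other more than those of the other clones did. The coefficient of variation in R7-II was 16.6% for Cd5, 9.72% for Cd6 and 20.9% for Cd44, but 3.10% for Cd69; in R7-I and R7-III no gene of the 4 exceeded 5.12%. Over the 3278 genes with a mean of at least 50 TPM, the median SD on the log2 scale was 0.0538 in R7-II against 0.0379 in R7-I and 0.0359 in R7-III. The R7-II library with the highest Cd5, Cd6 and Cd44, replicate 2, was still below every R7-I library.

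Markers of other cell types moved with the R7-II libraries. Of all genes tested, 40.6% passed as higher in R7-II against R7-I and 35.6% against R7-III. Summed B cell markers (7 genes, among them Cd79a) reached 33.0 to 69.2 TPM in R7-II but only 8.04 to 14.8 TPM in R7-I and 5.02 to 7.21 TPM in R7-III, and all 7 passed as higher in R7-II against either clone. Summed MHC class II genes (5 genes) were at 101 to 168, 27.9 to 44.1 and 19.6 to 22.8 TPM in R7-II, R7-I and R7-III, and myeloid markers (7 genes) at 104 to 160, 66.9 to 74.8 and 67.2 to 74.4 TPM; all 5 of the former and at least 6 of the latter passed as higher in R7-II. Most of the myeloid sum in R7-I and R7-III came from Cst3. Its means were 79.5, 66.1 and 64.3 TPM in R7-II, R7-I and R7-III, beside mean sums of 128, 71.3 and 70.7 TPM. Cst3 was higher in R7-II by only 0.26 than in R7-I and by 0.30 than in R7-III on the log2 scale. The median differences over the 7 myeloid markers were larger, 1.30 and 1.31. Replicate 2 of R7-II had the lowest B cell, MHC class II and myeloid sums in its clone, 33.0, 101 and 104 TPM. Replicate 1 had the highest B cell and MHC class II sums, 69.2 and 168 TPM, and replicate 3 the highest myeloid sum, 160 TPM. Cd5 and Cd6 were lowest in replicate 3 of R7-II, and Cd44 in replicate 1. CD4 T cell markers stayed at or below 2.94 TPM and NK cell markers at or below 0.17 TPM in every library, with Klra8 at 0 in all, while erythroid markers varied between 0.24 and 23.0 TPM and neither of their genes tested passed by limma. The part of these cells in the results was not tested; in RNA from sorted bulk cells, fewer cells of a type and less RNA per cell cannot be told apart.

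The CD8 T cell markers Cd3d, Cd3e, Cd3g, Cd8a and Cd8b1, 5 of the 6 listed, did not run parallel to the reporters. Their sum was 1369 to 1411, 2064 to 2113 and 1580 to 1597 TPM in R7-I, R7-II and R7-III, so the sorted identity was present in all libraries and its transcripts were highest in R7-II. As a share of this sum, Cd5 was at 39.3% in R7-I, 17.2% in R7-II and 43.1% in R7-III, and Cd44 at 12.5%, 3.71% and 12.4%. Cd69 was at 19.8% ± 0.767, 13.7% ± 0.252 and 17.3% ± 0.658 (SD, n = 3), which puts R7-II lowest for Cd69 too. With libraries scaled to this sum the median gene was also lower in R7-II, at -0.37 against R7-I and -0.25 against R7-III on the log2 scale. On this scale Cd6 was at 38.6%, 20.7% and 37.3%, so the order of R7-III and R7-I held for Cd5 and turned for Cd6 and Cd44.

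Ratios between the reporters within a library do not depend on scaling. The Cd6 to Cd5 ratio of TPM was 0.983 ± 0.0285 in R7-I, 1.21 ± 0.0829 in R7-II and 0.865 ± 0.0136 in R7-III (SD, n = 3): Cd6 transcripts outnumbered those of Cd5 in R7-II and were fewer in R7-III. The Cd69 to Cd5 ratio was 0.506, 0.810 and 0.401, in the same order. The Cd44 to Cd5 ratio was 0.319 ± 0.010, 0.217 ± 0.0420 and 0.287 ± 0.00111, highest in R7-I and lowest in R7-II. The libraries of the clones did not overlap in any of the 3 ratios, and the exact permutation test over 3 clones gave p = 0.00357 for each. All 3 ratios share Cd5, so they are not separate results, and with Cd69 nearly level its ratio largely restates Cd5. How many other pairs of genes separate the clones in this way was not counted. R7-I thus had more Cd44 per Cd5 transcript than R7-III although R7-III had more of both genes in TPM.

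**Figure D3:**
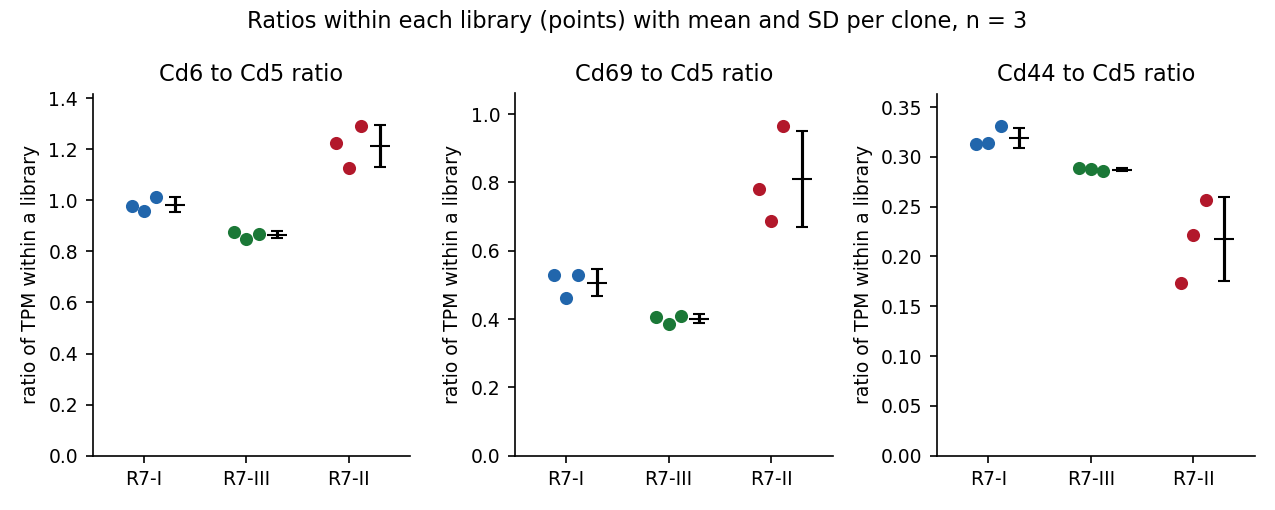
Ratio of the TPM of Cd6, Cd69 and Cd44 to that of Cd5 in each library (points), with mean and SD per clone, n = 3. R7-II has the highest Cd6 to Cd5 and Cd69 to Cd5 ratios and the lowest Cd44 to Cd5 ratio, and the points of the clones do not overlap.

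Across the 9 libraries the level of Cd5 on the log2 scale followed that of Cd6 closely (Pearson's r = 0.995), more so than that of Cd44 (r = 0.939), and r with Cd69 was -0.52. These libraries form 3 clones, so r mostly describes the clone means, and it is given without a test. Of 8839 genes with a mean of at least 5 TPM, Cd6 was the gene most like Cd5. It was followed by Cisd1 (r = 0.993), which encodes an iron-sulfur protein of mitochondria, Cox8a (0.989), a subunit of cytochrome oxidase, Ptger2 (0.988), a prostaglandin E2 receptor, and Tamm41 (0.987), an enzyme of cardiolipin synthesis. Ptger2 was at 16.7, 7.90 and 23.2 TPM in R7-I, R7-II and R7-III, a difference of -1.01 between R7-II and R7-I on the log2 scale (adjusted p = 1.66e-05).

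Cd6 shared Cox8a, Ptger2 and Cisd1 with Cd5 among its likest genes and added Rgs2 (r = 0.984), a regulator of G protein signalling. The genes most like Cd44 included Map3k8 (r = 0.995), a kinase upstream of ERK, Bsg (0.994), a companion of lactate transporters, Ldha (0.994), lactate dehydrogenase, and Tmem194 (0.993). Cd69 had weaker matches, led by Gm5424 (r = 0.943), AA465934 (0.897) and 1110059G10Rik (0.893), with Snora70 (0.855) and Ufc1 (0.849) next.

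The genes around Cd5 and Cd6 were called about as often as all genes. Within 250 kb of either gene 16 other genes were tested, of which 5 were higher and 3 lower in R7-II than R7-I, and 3 higher and 5 lower than in R7-III. None passed between R7-III and R7-I by limma, where 8.41% of all genes did. A430093F15Rik, which lies between Cd5 and Cd6, had the same order of clones at 26.6, 23.3 and 31.5 TPM in R7-I, R7-II and R7-III. It was lower in R7-II than R7-III (log2 fold change -0.42, adjusted p = 3.94e-04) and did not pass when set against R7-I (-0.19, adjusted p = 0.0352). Of all genes tested, 40.6% were higher and 15.5% lower in the comparison with R7-I, and 35.6% and 18.0% in that with R7-III. Beyond Cd6, Tmem109 was lower in R7-II (-0.65 and -0.69 against R7-I and R7-III) and AW112010, a transcript of activated lymphocytes, was higher (1.13 and 1.42). On the other side Cyb561a3 and Cpsf7 were higher in R7-II, by 0.79 and 0.44 against R7-I, but scaled to the CD8 T cell markers Cpsf7 lost this direction and Cyb561a3 its call (0.24, adjusted p = 0.0661).

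**Figure D4:**
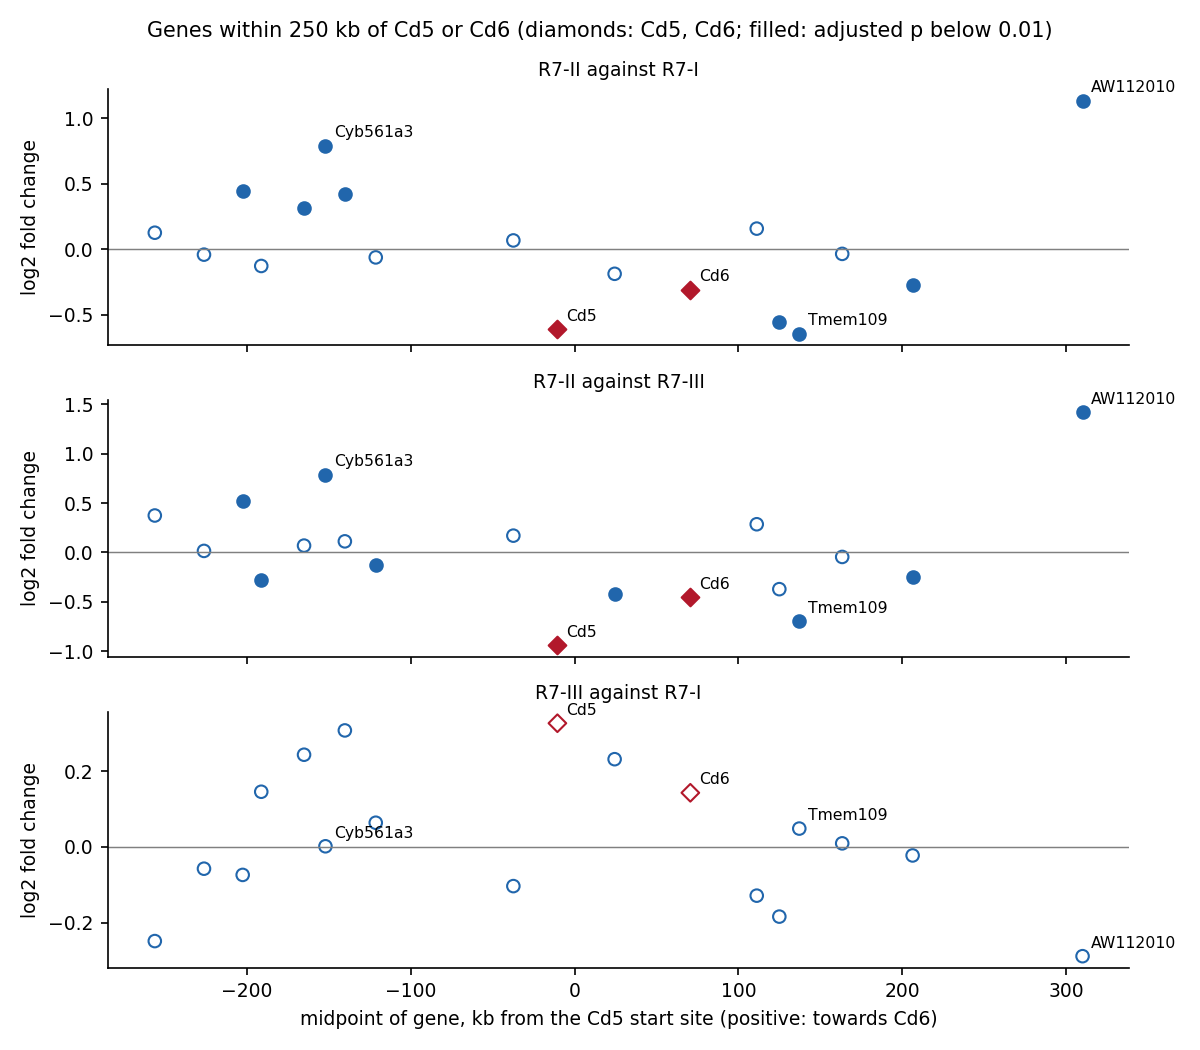
Log2 fold change of (TPM + 1) of the genes tested within 250 kb of Cd5 or Cd6 (diamonds: Cd5 and Cd6; circles: 16 other genes) against the distance of the gene's midpoint from the Cd5 start site in kb, for each comparison; filled symbols passed an adjusted p of 0.01. Genes that are higher and genes that are lower in R7-II lie on the flanks of the pair, and in R7-III against R7-I no symbol is filled.

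Near Cd69, 4 genes of the same window were tested, and 2 were higher and 1 lower in R7-II in both comparisons, too few to set against the 40.6% and 35.6% of all genes that were higher and the 15.5% and 18.0% that were lower. The lectin gene Clec2d, chosen after its values were seen, was at 62.5, 80.3 and 58.1 TPM in R7-I, R7-II and R7-III, higher in R7-II by 0.35 against R7-I (adjusted p = 0.00161); scaled to the CD8 T cell markers this turned to -0.24, and the call was lost with median-of-ratios scaling (0.16, adjusted p = 0.0407) and quantile normalization (0.26, adjusted p = 0.0106). Near Cd44 only 2 genes were tested.

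Genes whose products bind or act downstream of CD5 and CD6 were called about as often as all genes, of which 40.6% were higher and 15.5% lower in R7-II against R7-I and 35.6% and 18.0% against R7-III. Of 19 tested, 9 were higher and 2 lower in R7-II than R7-I, and 9 higher and 3 lower than in R7-III. In R7-III against R7-I 2 were higher, where 6.96% of all genes were higher and 1.45% lower. The median log2 fold change was 0.19, 0.14 and 0.02 against 0.17, 0.12 and 0.04 over all genes. With median-of-ratios scaling 6 were higher and 8 lower between R7-II and R7-I. Ubash3b, a phosphatase that restrains TCR signalling, had the clone order of Cd5 with a wider range, at 10.2, 4.34 and 23.4 TPM in R7-I, R7-II and R7-III. Its log2 fold change was -1.10 between R7-II and R7-I (adjusted p = 6.86e-05), -2.22 between R7-II and R7-III (adjusted p = 5.07e-07) and 1.12 between R7-III and R7-I (adjusted p = 6.43e-04), and these calls held in every alternative. The kinase gene Lck was higher in R7-II by 0.39 and 0.45, the direction opposite to Cd5, but scaled to the CD8 T cell markers it turned against R7-I and did not pass against R7-III (0.0502).

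Among 9 tested partners and ligands of CD69, 4 were higher and 1 lower in R7-II than R7-I, 5 higher and 1 lower than in R7-III, and 1 was higher in R7-III than R7-I. Shares of all genes were 40.6% higher and 15.5% lower, 35.6% and 18.0%, and 6.96% and 1.45%, so the counts alone do not set the list apart. The median log2 fold changes of the 9 genes were 0.82, 0.72 and -0.03 against 0.17, 0.12 and 0.04 over all genes. In both comparisons of R7-II the list median thus lay above that of all genes, and the list was not tested as a set. S1pr1, the receptor that CD69 pulls from the surface, was at 1.87, 38.5 and 1.44 TPM in R7-I, R7-II and R7-III, a log2 fold change of 3.75 between R7-II and R7-I (adjusted p = 1.84e-07) beside 0.06 for Cd69. Lgals1, the galectin that binds CD69, was at 15.2, 50.3 and 32.2 TPM in R7-I, R7-II and R7-III. The amino acid transporter chains that associate with CD69 went apart: Slc7a5 was lower in R7-II by -0.26 (adjusted p = 0.00277), a call lost in 5 alternatives, and Slc3a2 had a value of 0.15 that did not pass.

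Of 15 tested partners, ligands and sheddases of CD44, 5 were higher and 2 lower in R7-II than R7-I, and 5 higher and 4 lower than in R7-III. These counts were near the shares of all genes (40.6% and 15.5% against R7-I, 35.6% and 18.0% against R7-III). In R7-III against R7-I 1 was higher and 1 lower, where 6.96% of all genes were higher and 1.45% lower. The median log2 fold changes were 0.20, -0.02 and 0.07 against 0.17, 0.12 and 0.04 over all genes. Msn, which links the CD44 tail to actin, was at 372, 532 and 383 TPM in R7-I, R7-II and R7-III, higher in R7-II where Cd44 was lower, though scaled to the CD8 T cell markers it turned against R7-I and did not pass against R7-III (0.0740). Srgn, a proteoglycan that CD44 can bind, was lower in R7-II than R7-I by -0.20 (adjusted p = 0.00129), a call lost with quantile normalization (-0.0972, adjusted p = 0.0708). Cd74, an MHC class II chaperone that pairs with CD44 and marks B and myeloid cells, was at 17.4, 77.9 and 10.6 TPM.

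Among other transcripts that TCR signals induce, lower levels in R7-II outnumbered higher ones. Of 27 tested, 15 were lower and 6 higher in R7-II than R7-I, and 10 lower and 5 higher than in R7-III. In R7-III against R7-I 1 was lower, where 1.45% of all genes were lower and 6.96% higher. Of all genes, 15.5% and 18.0% were lower in R7-II in its 2 comparisons and 40.6% and 35.6% higher. The median log2 fold changes of the list in the 3 comparisons were -0.26, -0.13 and -0.11 against 0.17, 0.12 and 0.04 over all genes. Ifng, the effector cytokine, was at 149, 36.6 and 122 TPM in R7-I, R7-II and R7-III, -2.04 between R7-II and R7-I (adjusted p = 2.85e-06). Myc (-0.25, adjusted p = 8.84e-05) and Irf4 (-0.31, adjusted p = 2.97e-04), transcription factors of growth and effector fate, were lower by less. Nr4a1, which encodes Nur77 and is named in the design beside CD5, did not share the order of Cd5. It was at 245 ± 22.8, 315 ± 31.2 and 225 ± 4.99 TPM (SD, n = 3) in R7-I, R7-II and R7-III, higher in R7-II by 0.36 (adjusted p = 0.00154) and 0.48 (adjusted p = 2.38e-04). With median-of-ratios scaling the first of these did not pass, and scaled to the CD8 T cell markers it turned to -0.23 while the second fell to 0.0783 and did not pass (adjusted p = 0.408).

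Genes of the TCR complex and its first signalling steps were higher in R7-II, the direction opposite to Cd5, Cd6 and Cd44. Of 21 tested in R7-II, 19 passed as higher against R7-I and 18 against R7-III, none was lower by limma, and 3 were higher in R7-III than R7-I, beside 40.6%, 35.6% and 6.96% of all genes. Cd3g was at 287, 503 and 367 TPM in R7-I, R7-II and R7-III, and the adaptor gene Dok2 at 18.0, 64.2 and 22.4 TPM. With median-of-ratios scaling 14 were higher in each comparison of R7-II and none lower; scaled to the CD8 T cell markers, of which 5 are on this list, 3 were higher and 12 lower than in R7-I. Dok2 and Cd3g were higher in R7-II than R7-I in every alternative.

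Other surface antigens of T cell state were also compared with all genes, of which 40.6% were higher and 15.5% lower in R7-II against R7-I and 35.6% and 18.0% against R7-III. Of 21 tested, 11 were higher and 3 lower than in R7-I, and 11 higher and 2 lower than in R7-III. None passed between R7-III and R7-I by limma, where 6.96% of all genes were higher and 1.45% lower. The median log2 fold changes of the list were 0.46, 0.51 and 0.01 against 0.17, 0.12 and 0.04 over all genes. Cd7, an immunoglobulin superfamily antigen, was at 0.827, 22.9 and 1.01 TPM in R7-I, R7-II and R7-III, and Ccr7, a lymph node homing receptor, with a log2 fold change of 0.55 against R7-I that turned when scaled to the CD8 T cell markers. Tfrc, the transferrin receptor of dividing cells, was at 394 and 396 TPM in R7-I and R7-II and did not pass.

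**Figure D5:**
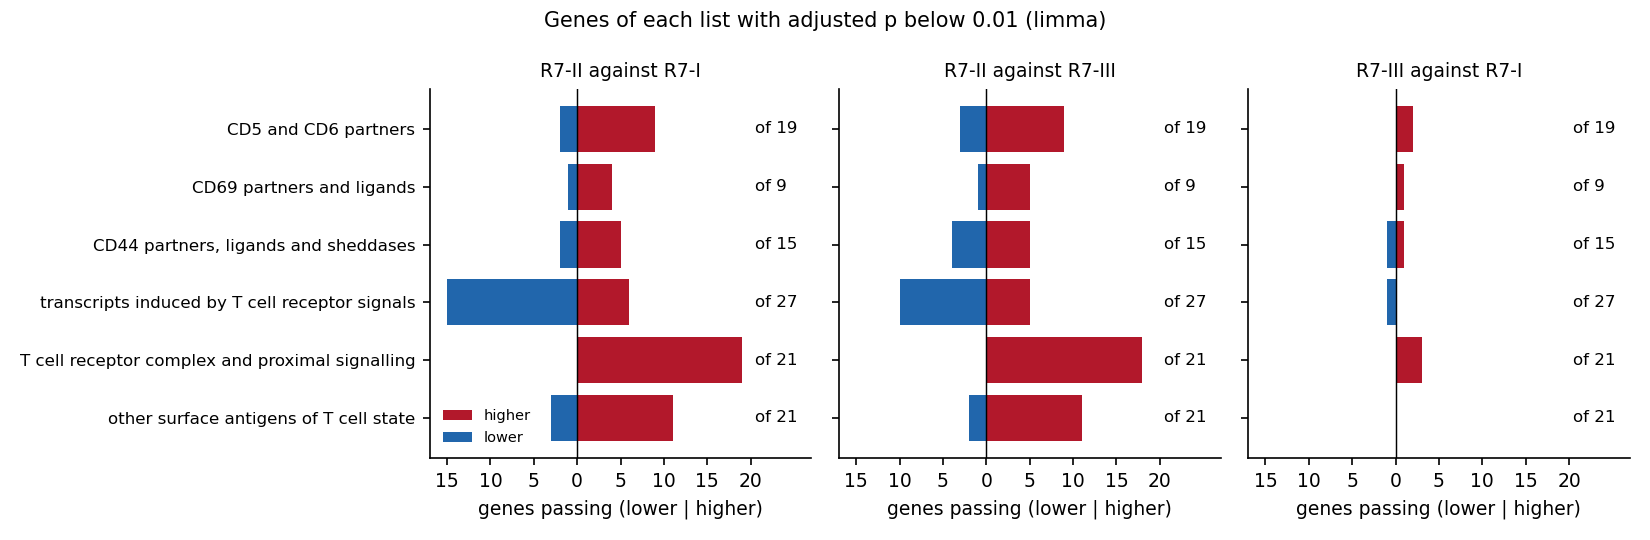
Number of genes of each list that were higher (right) or lower (left) at an adjusted p below 0.01 by limma, in each comparison of clones, with the number tested at the right. TCR-induced transcripts count 15 lower genes in R7-II against R7-I, whereas all 19 genes of the TCR complex list that passed are higher.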

How the data were processed

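Poly(A) RNA of 9 samples of peptide-activated, sorted CD8 T cells was sequenced (TruSeq mRNA kit, single-end reads). The authors estimated gene levels with RSEM 1.2.11 on RefSeq genes of mm10, and the values they deposited are TPM rounded to 2 decimals. The study's methods name RSEM for the alignment too, without the program it called. TPM keeps no depth; the methods give a typical read number per sample but none per library, so no counting error is given. Per the submitters' processing notes DESeq2 1.8.1 was run on counts, which were not used here; limma replaced it because TPM values are not counts. Unstimulated samples were not analysed here.

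Genes with a maximum TPM above 1 were tested on log2(TPM + 1) with limma 3.58.1 in R 4.3.3 (eBayes with trend, all 9 libraries, Benjamini-Hochberg threshold 0.01); fold changes are on this scale and understate those of low genes. The fit was also run on simulated data in which few genes changed and the clones shared a common spread per gene. That run does not bear on the shifted median gene or the wider spread of R7-II seen here. Exact permutation tests enumerated all assignments of libraries in Python 3.11.15. The members and gene lists were chosen with earlier results of these data known. Genes named are the 4 members, the 5 likest genes of each by Pearson's r, for each list the 3 most abundant genes and the largest change passing in each comparison, all tested genes within 250 kb of Cd5 or Cd6, and the most abundant marker of each other cell type; Nr4a1 and Clec2d were added later. Some genes that this rule names are not reported here. Some genes (Lck, Fyn, Zap70, Lcp2, Cd74, Cd3d, Cd3e, Cd3g, Cd8a, Cd8b1) are on more than 1 list. Positions and promoters are from RefSeq. Alternatives were the pseudocount, filter, scaling, trend, threshold, clones fitted, replicate block and each library left out.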

Additional observations from a re-analysis of the deposited data

How the results depend on the processing

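The lower levels of Cd5, Cd6 and Cd44 in R7-II kept their direction and passed under all 19 alternatives. Cd69 turned sign with median-of-ratios scaling (-0.13 against R7-I, adjusted p = 0.0324, and -0.0704 against R7-III) and with quantile normalization (0.00418 for R7-III against R7-I). In R7-II quantile normalization instead raised Cd69, to 0.13 against R7-I (adjusted p = 0.0117) and 0.12 against R7-III (adjusted p = 0.0137), neither of which passed. Between R7-III and R7-I, fitting only the 2 clones let Cd5 (0.33), Cd6 (0.14) and Cd44 (0.18) pass, and a threshold of 0.05 let Cd5 (0.33) pass, with 2142 genes passing in place of 953. With single libraries left out, this comparison gave 0.31 to 0.35 for Cd5, -0.0496 to 0.0202 for Cd69 and 436 to 1120 genes; the count was 436 and 577 when replicates 1 and 2 of R7-I were left out, and 496, 497 and 530 when replicates 1, 2 and 3 of R7-III were. Cd5 passed without R7-II replicate 2 (adjusted p = 0.00194) or 3 (adjusted p = 0.00338). The cause was not tested.

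Scaling each library to the summed CD8 T cell markers was chosen after seeing the data. It moved the median gene to -0.37, -0.25 and -0.13 in R7-II against R7-I, R7-II against R7-III and R7-III against R7-I. All 5 markers passed as higher in R7-II against either clone in the main fit. With the scaling 7664 and 6782 of the 11330 genes passed in R7-II against R7-I and R7-III. Only 12.8% and 17.1% of these calls were higher. Cd69 was among the lower genes in R7-II, by -0.53 (adjusted p = 1.20e-07) and -0.34 (adjusted p = 9.43e-06), so this call is one that most passing genes share. It was lower by -0.20 in R7-III against R7-I. Its exact permutation p over the clones was 0.00357. In R7-III against R7-I Cd6 was at -0.0497 (adjusted p = 0.513) and Cd44 at -0.0163 (adjusted p = 0.918), both near 0, and 2967 genes passed, 12.1% of them higher. Named genes that turned in R7-II against R7-I were Lck (-0.20), Zap70 (-0.40), Msn (-0.0760), Lat (-0.18), Ptprc (-0.29), Cd52 (-0.30), Ccr7 (-0.0445), Cst3 (-0.32), Cpsf7 (-0.14), Tmem138 (-0.24), Dak (-0.12), Nr4a1 (-0.23) and Clec2d (-0.24), and against R7-III Lat (-0.0703), Ptprc (-0.0400) and Cst3 (-0.0922). Of 91 calls of named genes, 51 held in every alternative. Median-of-ratios scaling moved the share of higher calls from 72.4% to 46.1%, from 66.4% to 46.8% and from 82.8% to 56.6% in the 3 comparisons.

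The replicate numbers did not pair the libraries. Correlations of deviations from the clone means were -0.0449 to 0.0888 for same-numbered libraries, and not every library correlated best with its own number. A fit with the replicate block changed no call of the 4 genes and gave 6015, 5786 and 733 genes passing, against 6358, 6077 and 953. TPM does not give the depth of each library, so no counting error at low levels is given. With 3 libraries per clone no single library could be singled out by a test.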
